A study of Mus musculus with 4 samples.

Results

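The integrin subunits of leukocytes were followed in mouse leukemic stem cells (LSCs) with floxed or with deleted *Cd37*, the gene of a tetraspanin of the leukocyte membrane. The members are 10 genes taken by name as the chains that leukocyte integrins are built from, *Itgb7*, *Itga4*, *Itgb1*, *Itga5*, *Itga6*, *Itgav*, *Itgb2*, *Itgal*, *Itgam* and *Itgax*. Of these, 9 were found among the 17104 genes measured, and *Itgam* was not analysed here. The libraries came from bone marrow YFP+, c-kit+ LSCs, sorted at week 6 after secondary transplantation of MLL-AF9 acute myeloid leukemia (AML), with 2 CD37 fl/fl and 2 CD37 -/- samples from male C57 mice. The sample titles call the CD37 fl/fl samples wild type, yet both groups shared the floxed *Cd37* alleles, a tamoxifen-inducible Cre (Rosa26-CreERT2), the MLL-AF9 retrovirus with YFP and the irradiated C57 recipient. They differed in what the primary recipients were given, which was corn oil for CD37 fl/fl and tamoxifen for CD37 -/-. Rosa26 is active in most cell types, the Cre came with the grafted cells, and every leukemic cell descended from lineage-negative marrow cells that took up the retrovirus, whose number of clones was not stated. The sources do not say whether the 2 replicates of a group came from separate mice or from pools, so the p-values measure the spread between these samples, which may be technical.

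Integrins are heterodimers of an α and a β chain, and a chain reaches the cell surface only once it has found its partner. The β chain decides which α chains can join. *Itga4* encodes the α4 chain, which pairs with the β7 chain (*Itgb7*) into the homing receptor for MAdCAM-1 and with the β1 chain (*Itgb1*) into VLA-4, the receptor of VCAM-1 and fibronectin. The β1 chain also joins α5 (*Itga5*, fibronectin receptor), α6 (*Itga6*, laminin receptor) and αv (*Itgav*, vitronectin and related ligands). The β2 chain (*Itgb2*) is shared by the leukocyte integrins LFA-1, with αL (*Itgal*), Mac-1, with αM (*Itgam*), and the CD11c integrin of dendritic cells and macrophages, with αX (*Itgax*). In bone marrow, VLA-4 and its relatives hold stem cells and leukemic cells to stroma, while the β2 integrins are found on leukocytes more widely, maturing myeloid cells among them.

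The start regions of 3 members are shown first, because the α4 chain and the β chains it can join lie at the centre of the comparison and their RNA did not move together. They come from RefSeq on GRCm38.p6, reach from 250 bases before to 50 bases after the transcription start, and are written 5′ to 3′ on the strand of the gene. *Itgb7* is read from the minus strand of chr15:102231886-102232185, *Itga4* from the plus strand of chr2:79255176-79255475 and *Itgb1* from the plus strand of chr8:128685404-128685703. Capitals mark 3 short motifs, searched on both strands, which are GAGGAA (core of the PU.1 motif), TGTGGT (core of the RUNX motif) and GGGCGG (core of the SP1 motif).
Itgb7: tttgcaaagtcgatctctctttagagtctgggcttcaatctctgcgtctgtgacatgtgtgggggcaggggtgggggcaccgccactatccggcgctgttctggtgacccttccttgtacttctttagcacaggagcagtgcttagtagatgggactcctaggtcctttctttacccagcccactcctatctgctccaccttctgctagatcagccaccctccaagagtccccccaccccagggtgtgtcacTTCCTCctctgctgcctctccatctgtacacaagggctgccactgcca
Itga4: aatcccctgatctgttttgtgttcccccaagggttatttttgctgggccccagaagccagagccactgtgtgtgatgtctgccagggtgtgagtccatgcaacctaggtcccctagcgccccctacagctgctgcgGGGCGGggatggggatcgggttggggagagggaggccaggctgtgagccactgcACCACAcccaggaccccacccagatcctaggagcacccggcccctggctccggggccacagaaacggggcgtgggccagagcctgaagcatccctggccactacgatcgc
Itgb1: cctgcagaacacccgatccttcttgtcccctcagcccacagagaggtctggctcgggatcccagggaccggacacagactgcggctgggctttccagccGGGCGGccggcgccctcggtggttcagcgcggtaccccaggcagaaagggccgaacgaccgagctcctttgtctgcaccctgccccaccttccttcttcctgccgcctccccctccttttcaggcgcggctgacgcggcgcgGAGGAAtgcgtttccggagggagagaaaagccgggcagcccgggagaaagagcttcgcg
The *Itgb7* region held 1 match, TTCCTC, the reverse complement of GAGGAA, at position 3 after the start. The *Itga4* region held ACCACA, the reverse complement of TGTGGT, at position -60 and GGGCGG at -114. The *Itgb1* region held GGGCGG at -151 and GAGGAA at -9. Among 32851 start regions of the same length, 28.3% held GAGGAA, 16.8% TGTGGT and 35.7% GGGCGG on either strand, so that matches of this kind are common. Such a table entry existed for 6 of the 9 members, the others being *Itga5*, *Itgav* and *Itgax*. It was missing for *Itga6*, *Itgb2* and *Itgal*.

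Values are FPKM (fragments per kilobase of gene, scaled by library size). The deposited values came out as whole reads for 98.9% of entries in each library when the kilobases were those of the whole gene span, introns included, which allowed the reads to be recovered, from 15139066 to 22562837 per library. *Cd37* itself was at 56.6 and 46.8 FPKM in CD37 fl/fl LSCs against 23.2 and 22.9 FPKM in CD37 -/- LSCs (log2 fold change -1.15, standard error 0.23, unadjusted p = 0.0034, adjusted p = 0.13, limma). The CD37 -/- libraries thus kept 44.7% of the mean, and since only part of the gene is floxed, a value over the whole gene does not show how complete the deletion was. *Kit*, the gene of the sort, had 0.17, 0.325, 0.327 and 0.434 FPKM (213 to 804 reads). In each library 10 of 10 markers of c-kit+ myeloid progenitors were above 0. So were 10 of 10 mature neutrophil markers, and 15822 to 16359 of all 17104 genes, so this count does not mark a cell type. Among the progenitor markers, *Cd34* had only 5 to 16 reads and *Flt3* only 9 to 31 reads, both named after their values were seen. Libraries stood apart in other ways. CD37 fl/fl replicate 2 had the lowest value of 10 of 10 mature neutrophil markers, CD37 fl/fl replicate 1 had the highest value of 7 of 10 dendritic cell markers, and CD37 -/- replicate 1 had the highest value of 7 of the 9 erythroid markers measured. Of the 8 stromal and endothelial markers measured 5 to 7 were under 10 reads per library, *Cd3g* of T cells was at 0 in both CD37 fl/fl libraries, and *Kdr* and *Cxcl12* were at 0 in 3 of the 4 libraries. Since RNA was taken from sorted bulk samples, a smaller number of cells of one type and less RNA in each cell cannot be told apart in any value below.

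The β2 chain and its αL partner were higher in CD37 -/- LSCs, the β7 chain was lower, the β1 chain was somewhat higher, and the α4, α5, α6 and αX chains had values that overlapped between the groups. No member had an adjusted p under 0.05. The test was limma on log2(FPKM + 0.1) over the 11774 genes whose mean FPKM reached 0.1, and 0 of them passed at an adjusted p under 0.05 (0.0% called), with 2606 at an unadjusted p under 0.05. The smallest adjusted p of all genes was 0.107, and limma-voom on the recovered reads also called 0 of 13056 genes. At an unadjusted p under 0.05, 4 of the 9 members passed, 3 higher and 1 lower in CD37 -/-, beside 22.1% of all genes tested, or 16.5% higher and 5.61% lower. In limma-voom the same 4 members passed, beside 25.3% of all genes, or 19.1% higher and 6.17% lower. The groups did not overlap for 5 of the 9 members, 4 higher and 1 lower, where 60.8% of all genes tested did not overlap, 42.2% higher and 18.6% lower, so that this count lies near the background. The median log2 fold change was 0.23 over the members and 0.23 over all genes tested.

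**Figure D1:**
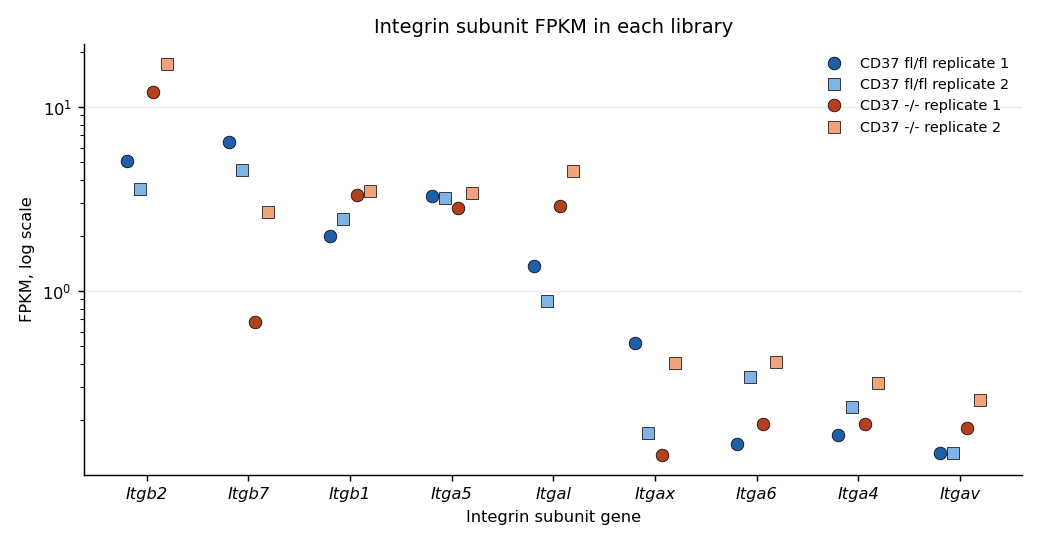
FPKM of each member (log axis) in the 4 libraries, circles for replicate 1 and squares for replicate 2, blue for CD37 fl/fl and red or orange for CD37 -/-. *Itgb2* and *Itgal* are higher in both CD37 -/- libraries, *Itgb7* lies lowest in CD37 -/- replicate 1 at 0.675, and *Itga5* lies between 2.83 and 3.41 throughout.

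The median over all genes tested depended on the scale. It was 0.23 with the deposited values, -0.03 after quantile normalization, -0.00 after division by the upper quartile and 0.55 after rescaling to equal sums (TPM). The share of genes higher in CD37 -/- among those at an unadjusted p under 0.05 was 74.7% with the deposited values, 47.5% after quantile normalization, 43.9% after division by the upper quartile and 93.3% after TPM rescaling. Relative to the median of all genes, *Itgb7* was at -2.14, *Itgb1* at 0.37, *Itgb2* at 1.5 and *Itgal* at 1.40 on the log2 scale, *Itga4* at -0.00, *Itga5* at -0.29, *Itga6* at -0.01, *Itgav* at 0.22 and *Itgax* at -0.50. The fold changes below are not shifted by it.

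*Itgb7* encodes the β7 chain, whose partners are α4 and, in the mucosa, αE. It had 6.44 and 4.54 FPKM in CD37 fl/fl LSCs, against 0.675 and 2.67 FPKM in CD37 -/- LSCs. Both CD37 -/- values lay below both CD37 fl/fl values, and they differed from each other more than the CD37 fl/fl values did. The reads behind them were 1575 and 1255 against 191 and 962. For the lowest library, counting error alone gives a 95% interval (exact Poisson) of 165 to 220 reads, so the distance between the CD37 -/- replicates is larger than counting error. The mean was 5.49 ± 1.34 FPKM (SD, n = 2) in CD37 fl/fl and 1.67 ± 1.41 FPKM (SD, n = 2) in CD37 -/- LSCs, or 30.4% of the CD37 fl/fl mean. The log2 fold change was -1.91 (standard error 0.63, 95% interval -3.51 to -0.32, unadjusted p = 0.0272, adjusted p = 0.188, limma). The adjusted p ranged from 0.0919 (limma-voom on recovered reads) to 0.395 over the alternatives. The size of the difference rested on CD37 -/- replicate 1, without which it was -0.99 (unadjusted p = 0.0641, limma), while it was -2.83 without CD37 -/- replicate 2. The unadjusted p also exceeded 0.05 without CD37 fl/fl replicate 1 (0.128), without CD37 fl/fl replicate 2 (0.0689), without a filter on low values (0.059) and after TPM rescaling (0.051) in limma, whereas the value stayed below 0 under all 16 alternatives.

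Markers of other cells that can carry β7 were laid beside *Itgb7*. The summed FPKM of the B cell list was 13.6 and 15.6 for CD37 fl/fl, against 9.10 and 7.21 for CD37 -/-, and that of the T and NK cell list was 94.8 and 118 against 40.5 and 41.5. Both sums thus followed the order of the groups. Nearly the whole of each came from a single gene, *Nkg7* (94.6, 118, 40.1 and 41.3 FPKM), which codes for a granule protein, and *Cd79b* (12.5, 15.3, 8.02 and 6.16 FPKM), a chain of the B cell receptor complex. Defining markers were at or near 0, with *Pax5* at 10, 0, 17 and 11 reads and *Cd3g* at 0, 0, 9 and 2 reads. *Pax5* was named after its values were seen. The list of mast cells, basophils and eosinophils, which also use β7, went the other way, with 31.2 and 20.7 against 52.5 and 45.4 summed FPKM. In the progenitor list 2 of the 8 genes tested were lower at an unadjusted p under 0.05, beside 5.61% of all genes, and 0 were higher. These were *Mpo* (80.3, 51.6, 34.4 and 20.8 FPKM) and *Ms4a3* (152, 201, 102 and 95.6 FPKM), named after their values were seen. Of the 8, the log2 fold change was below 0 for 4 and above 0 for 4, beside 64.5% of all genes above 0. Those above 0 were *Kit* (0.5), *Meis1* (0.59), *Hoxa9* (0.13) and *Elane* (0.02). *Meis1* and *Hoxa9* were also named after their values were seen. The erythroid sum was 69.3, 15.7, 589 and 156, highest in the library with the lowest *Itgb7*. In this list 6 of the 7 genes tested (85.7%) were higher at an unadjusted p under 0.05, beside 16.5% of all genes, and 9 of 9 did not overlap between the groups, each higher in CD37 -/-. The dendritic cell sum was 237 and 31.4 FPKM for CD37 fl/fl, against 11.3 and 43.4 for CD37 -/-, so the groups overlapped. In this list 7 of 10 genes were lowest in CD37 -/- replicate 1, the library with the lowest *Itgb7*. Of its 4 genes tested 4 had a log2 fold change below 0 (median -1.89), beside 64.5% of all genes above 0. At an unadjusted p under 0.05, 0 of them passed (limma), beside 22.1% of all genes. The part of any of these lists in the *Itgb7* difference was not tested.

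*Itga4*, the partner of β7, did not follow it. It had 0.165 and 0.233 FPKM in CD37 fl/fl, against 0.189 and 0.317 FPKM in CD37 -/- LSCs, from 196 to 558 reads. The groups overlapped, and in both of them replicate 2 was the higher. The log2 fold change was 0.23 (95% interval -0.62 to 1.07, unadjusted p = 0.524, adjusted p = 0.696, limma). This interval holds changes of either sign, and the direction turned after quantile normalization (-0.12) and without CD37 -/- replicate 2 (-0.04). On exon length *Itga4* was still among the lowest members, with a mean level of 1.26. The span of *Itga4* on chromosome 2 is 77698 bases, 5.56 times the exon length, beside a median of 5.02 times over all genes. At its end 2581 bases overlap *Cerkl* on the other strand, which had 25 to 119 reads, and whether counting used the strand was not stated.

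The β1 chain, the second partner of α4, was measured at 1.99 and 2.45 FPKM in CD37 fl/fl and at 3.32 and 3.49 FPKM in CD37 -/- LSCs. The groups did not overlap, and both of them were narrow. The mean was 2.22 ± 0.322 FPKM (SD, n = 2) against 3.40 ± 0.12 FPKM (SD, n = 2), which gave a log2 fold change of 0.60 (standard error 0.23, 95% interval 0.01 to 1.19, unadjusted p = 0.0473, adjusted p = 0.221, limma). Part of this was shared with the average gene, as the median of all genes was 0.23 and *Itgb1* lay 0.37 above it. After quantile normalization the log2 fold change of *Itgb1* was 0.35 (unadjusted p = 0.143, limma). After division by the upper quartile it was 0.34 (unadjusted p = 0.165, limma). The unadjusted p also exceeded 0.05 without CD37 fl/fl replicate 1 (0.146), without CD37 -/- replicate 1 (0.139), without CD37 -/- replicate 2 (0.174), with a pseudocount of 1 (0.0505) and without a trend in eBayes (0.059), all in limma.

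Among the other α chains that join β1, the groups overlapped for *Itga5* and *Itga6* but not for *Itgav*. *Itga5*, the α chain of the classical fibronectin receptor, had 3.28 and 3.21 FPKM in CD37 fl/fl, against 2.83 and 3.41 FPKM in CD37 -/- LSCs. Its highest and lowest values were those of the CD37 -/- replicates, and it was the member that varied least, by a factor of 1.20 between the lowest and the highest library. The log2 fold change was -0.06 (95% interval -0.64 to 0.51, adjusted p = 0.888, limma) and became 0.31 after TPM rescaling and 0.07 without CD37 -/- replicate 1. *Itga6*, the laminin receptor chain used as a stem cell marker in many tissues, had 0.147 and 0.34 FPKM in CD37 fl/fl, against 0.19 and 0.41 FPKM in CD37 -/- LSCs. Here replicate 2 was about as far above replicate 1 in both groups, and the difference between groups was the smaller one, with a log2 fold change of 0.22 (95% interval -0.92 to 1.36, adjusted p = 0.782, limma). It turned to -0.14 after quantile normalization, to -0.19 without CD37 fl/fl replicate 1 and to -0.18 without CD37 -/- replicate 2. *Itgav*, whose chain binds vitronectin and latent TGF-β complexes, had 0.132 and 0.131 FPKM in CD37 fl/fl, against 0.179 and 0.255 FPKM in CD37 -/- LSCs. Both CD37 -/- libraries were the higher, as for 42.2% of all genes tested, and the mean was 1.65 times as high. The log2 fold change of 0.44 (95% interval -0.31 to 1.20, unadjusted p = 0.192, adjusted p = 0.395, limma) did not pass the test. Adding 0.1 to values this low shrinks it. The log2 fold change was 0.66 with a pseudocount of 0.01 (unadjusted p = 0.212, limma) and 0.71 in limma-voom (unadjusted p = 0.0842), and neither passed.

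*Itgb2*, the common β2 chain, had 5.08 and 3.56 FPKM in CD37 fl/fl, against 12 and 17.2 FPKM in CD37 -/- LSCs, from 2186 to 13793 reads. The lowest CD37 -/- value was above the highest CD37 fl/fl value by more than the distance between replicates in either group. The mean was 4.32 ± 1.08 FPKM (SD, n = 2) against 14.6 ± 3.69 FPKM (SD, n = 2), or 3.38 times as much. The log2 fold change was 1.73 (standard error 0.30, 95% interval 0.96 to 2.50, unadjusted p = 0.00205, adjusted p = 0.12, limma). The adjusted p ran from 0.0576 (TPM rescaling) to 0.421 (without CD37 -/- replicate 2) over the alternatives. The fold change stayed between 1.47 and 1.99 when each library was left out in turn, and the unadjusted p stayed under 0.05 in all 16 alternatives, at most 0.0218 (limma).

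*Itgal*, the αL chain that makes LFA-1 with β2, followed it closely. It had 1.36 and 0.88 FPKM in CD37 fl/fl, against 2.89 and 4.47 FPKM in CD37 -/- LSCs, from 593 to 3935 reads. The order of the 4 libraries was that of *Itgb2*, with CD37 fl/fl replicate 2 lowest and CD37 -/- replicate 2 highest. The mean was 3.29 times as high in CD37 -/- LSCs (3.68 ± 1.12 against 1.12 ± 0.34 FPKM, SD, n = 2), and the log2 fold change was 1.63 (standard error 0.34, 95% interval 0.76 to 2.49, unadjusted p = 0.00451, adjusted p = 0.132, limma). The adjusted p ran from 0.0689 to 0.498 over the alternatives, the fold change from 1.32 to 1.93 with each library left out, and the unadjusted p was at most 0.047 in all 16 alternatives (limma).

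*Itgax*, the αX chain and a marker of dendritic cells, did not follow its β chain. It had 0.522 and 0.169 FPKM in CD37 fl/fl, against 0.128 and 0.406 FPKM in CD37 -/- LSCs, from 48 to 194 reads. Each group held a high and a low library, and the log2 fold change of -0.27 (95% interval -1.75 to 1.21, adjusted p = 0.797, limma) became 0.02 after TPM rescaling, 0.33 without CD37 fl/fl replicate 1 and 0.31 without CD37 -/- replicate 1. The same libraries were high for the monocyte and macrophage list, with 36, 10.8, 12.4 and 27 summed FPKM, and for the dendritic cell list, with 237, 31.4, 11.3 and 43.4 summed FPKM, in the order CD37 fl/fl replicates 1 and 2, CD37 -/- replicates 1 and 2. The dendritic cell sum came mostly from *Cd74* and *H2-Aa* of the MHC class II pathway, whereas *Xcr1* had 15, 12, 0 and 0 reads. The part of such cells in the *Itgax* values was not tested.

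Mature neutrophils carry much β2 integrin, and their markers were laid beside *Itgb2* and *Itgal*. The 10 markers of the list summed to 18700 and 3690 FPKM for CD37 fl/fl, against 18700 and 10500 FPKM for CD37 -/-, mostly from *S100a8* and *S100a9*. The log2 fold change was above 0 for 10 of 10 of them, 5 of the 10 did not overlap between the groups, each higher in CD37 -/-, and 0 passed at an unadjusted p under 0.05, beside 64.5% of all genes above 0, 42.2% not overlapping and higher, and 22.1% at an unadjusted p under 0.05. The sum hides differences between its genes. In CD37 fl/fl replicate 1 and CD37 -/- replicate 1 the sums were equal to 3 digits. Higher in the latter were *Ltf* (11.5 and 23.7 FPKM), *Camp* (731 and 1440 FPKM), *Ngp* (1110 and 1940 FPKM) and *Retnlg* (19.9 and 32 FPKM). *Itgb2* (5.08 and 12 FPKM) and *Itgal* (1.36 and 2.89 FPKM) were higher there as well. The rest of the list went both ways. *Lcn2* (321 and 273 FPKM), *Mmp8* (4.81 and 3.03 FPKM) and *S100a9* (4990 and 2980 FPKM) were lower in CD37 -/- replicate 1. *Cxcr2* (5.81 and 6.73 FPKM) and *S100a8* (11400 and 12000 FPKM) were higher, and *Mmp9* was nearly level. Of these markers, all but *S100a8* and *S100a9* were named after their values were seen. CD37 fl/fl replicate 2, the library with the lowest sum, had the lowest *Itgb2* and *Itgal*. Without it the log2 fold changes were 1.48 and 1.34 (unadjusted p = 0.0132 and 0.0251, limma). The part of neutrophil RNA in the 2 fold changes was not tested.

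**Figure D2:**
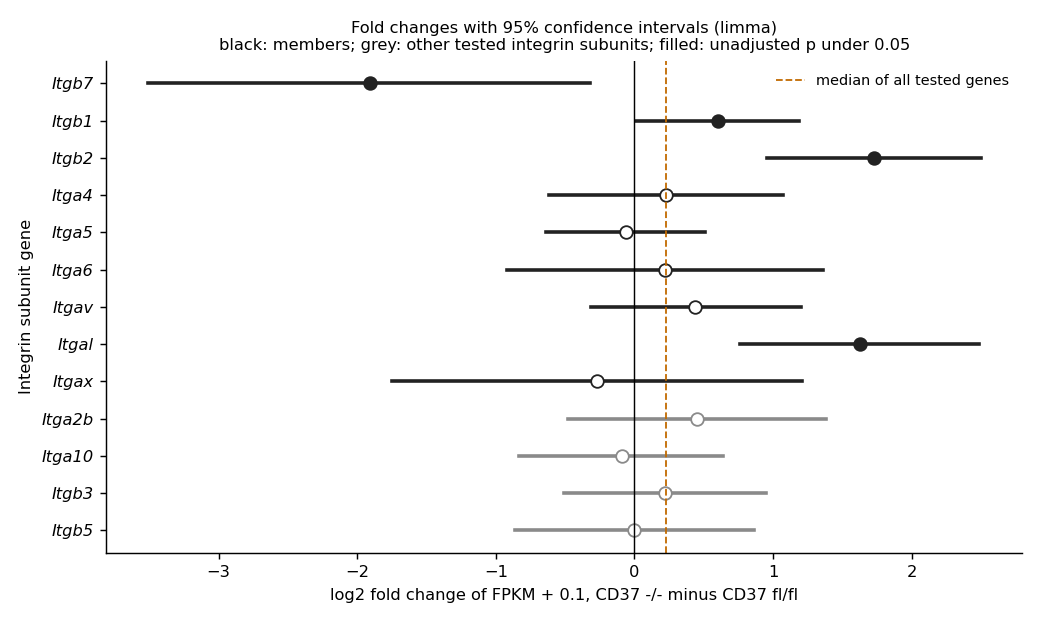
log2 fold change of FPKM + 0.1 (x axis) for each member in black and for the 4 other integrin subunits tested in grey, with 95% confidence intervals from limma and the median of all genes as a dashed line. The intervals of *Itgb2* and *Itgal* lie wholly to the right of 0, that of *Itgb7* wholly to the left, and that of *Itgb1* reaches down to 0.01.

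To compare chains with each other, the recovered reads were divided by exon length and by the reads of the library, since FPKM on gene spans understates genes with long introns. The span was 11.7 times the exon length for *Itgb1* and 11.6 times for *Itgb2*, but 5.76 times for *Itgb7*. Recovered reads may include intronic ones, as the counting was not described in that detail. On this exon scale the mean level over the 4 libraries was 110 for *Itgb2*, 32.8 for *Itgb1*, 20.6 for *Itgb7*, 14.5 for *Itga5*, 14.2 for *Itgal*, 3.39 for *Itga6*, 1.35 for *Itgax*, 1.34 for *Itgav* and 1.26 for *Itga4*. *Itgb2* was above *Itgb1* in 4 of 4 libraries and *Itgal* above *Itga6* in 4 of 4. Other neighbours in that order were not separated in each library, as *Itgb1* was above *Itgb7* in 3, *Itgb7* above *Itga5* in 2, *Itga5* above *Itgal* in 2, *Itga6* above *Itgax* in 3, *Itgax* above *Itgav* in 1 and *Itgav* above *Itga4* in 3 libraries. The order of *Itgax*, *Itgav* and *Itga4*, which lay close together, changed with the library and with the length used.

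The make-up of the β chains differed between the groups. In CD37 fl/fl LSCs *Itgb7* made up 31.1% and 27.2% of the summed level of the 3 β chains, against 2.14% and 6.00% in CD37 -/- LSCs. *Itgb2* made up 49.5% and 43.0% against 76.6% and 78.1%, and *Itgb1* 19.5% and 29.7% against 21.3% and 15.9%. The groups were apart for β7 and β2 and overlapped for β1. The difference was -25.1 percentage points for *Itgb7* (29.2 ± 2.72 against 4.07 ± 2.73, SD, n = 2) and 31.1 for *Itgb2* (46.3 ± 4.53 against 77.3 ± 1.08, SD, n = 2), each with a two-sided p of 0.333 in the exact permutation test, the smallest that 2 against 2 samples allow. A share falls when another chain rises, so these are not separate results. Summed, the β chains were at 119 and 96.0 against 182 and 256. In plain ratios, *Itgb2* was 1.59 and 1.58 times *Itgb7* in CD37 fl/fl, against 35.8 and 13 times in CD37 -/- LSCs, and *Itgb7* was 1.60 and 0.916 times *Itgb1* against 0.101 and 0.378 times. On deposited FPKM in place of the exon scale, the *Itgb7* share was 47.7% and 43.0% against 4.23% and 11.4%.

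Among the α chains, *Itga5* made up 51.4% and 53.9% of the summed level in CD37 fl/fl, against 36.5% and 29.5% in CD37 -/- LSCs, and *Itgal* 27.7% and 19.2% against 48.4% and 50.3%. The largest α share was thus that of α5 in CD37 fl/fl and that of αL in CD37 -/- LSCs, in both replicates of each (exact permutation p = 0.333 for either chain, two-sided). *Itga4* held 3.15% and 4.78% against 2.98% and 3.35%, *Itga6* 6.32% and 15.6% against 6.71% and 9.73%, *Itgav* from 3.49% to 3.89% and *Itgax* from 1.59% to 7.90%.

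**Figure D3:**
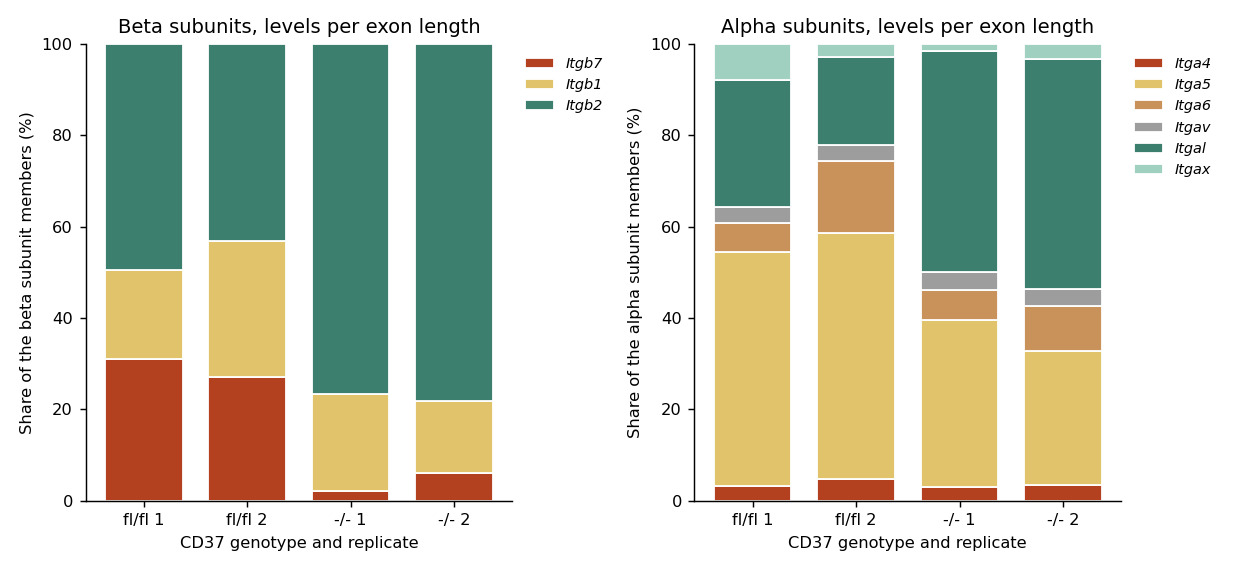
Stacked shares (percent) of the β chains (left) and of the α chains (right) in each library, from recovered reads per exon length. *Itgb7* makes up 31.1% and 27.2% of the β chains for CD37 fl/fl and 2.14% and 6.00% for CD37 -/-, and *Itgal* makes up 48.4% and 50.3% of the α chains in CD37 -/- libraries.

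Pairs were then compared by the ratio of the β to the α chain on the exon scale, for 7 pairs in all. LFA-1 had the steadiest ratio, with 7.33 and 7.93 times as much *Itgb2* as *Itgal* in CD37 fl/fl, against 8.14 and 7.54 times in CD37 -/- LSCs. Both chains were more than 3 times as high in CD37 -/- LSCs, and their log2 ratio (α over β) differed by -0.04 with a replicate SD of 0.08. The α4β7 pair had the largest difference in that ratio. There was 40.5 and 20.2 times as much *Itgb7* as *Itga4* in CD37 fl/fl, against 3.69 and 8.70 times in CD37 -/- LSCs, a difference in log2 α over β of 2.33 with a replicate SD of 0.80. The β7 RNA thus stayed above the α4 RNA in each library, on either side of the comparison. For α4 with β1, the other pair that α4 can enter, the factor was 25.4 and 22.0 against 36.7 and 23.0, and the groups overlapped.

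The remaining pairs lay between these. There was 1.56 and 1.95 times as much *Itgb1* as *Itga5* in CD37 fl/fl, against 3.00 and 2.62 times in CD37 -/- LSCs, a difference in log2 α over β of -0.69 with a replicate SD of 0.19. The groups did not overlap, with *Itga5* level and *Itgb1* higher. *Itgb1* was 12.7 and 6.72 against 16.3 and 7.93 times *Itga6*, and 22.9 and 28.4 against 28.1 and 20.7 times *Itgav*, with overlap in both. *Itgb2* was 25.7 and 55.5 against 247 and 112 times *Itgax*, a difference in log2 α over β of -2.14 with a replicate SD of 0.80. The two-sided exact permutation p was 0.333 for the α4β7, α5β1 and αXβ2 pairs and 0.667 for the other 4, and 0.667 for each after Benjamini-Hochberg adjustment over the 7 pairs.

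**Figure D4:**
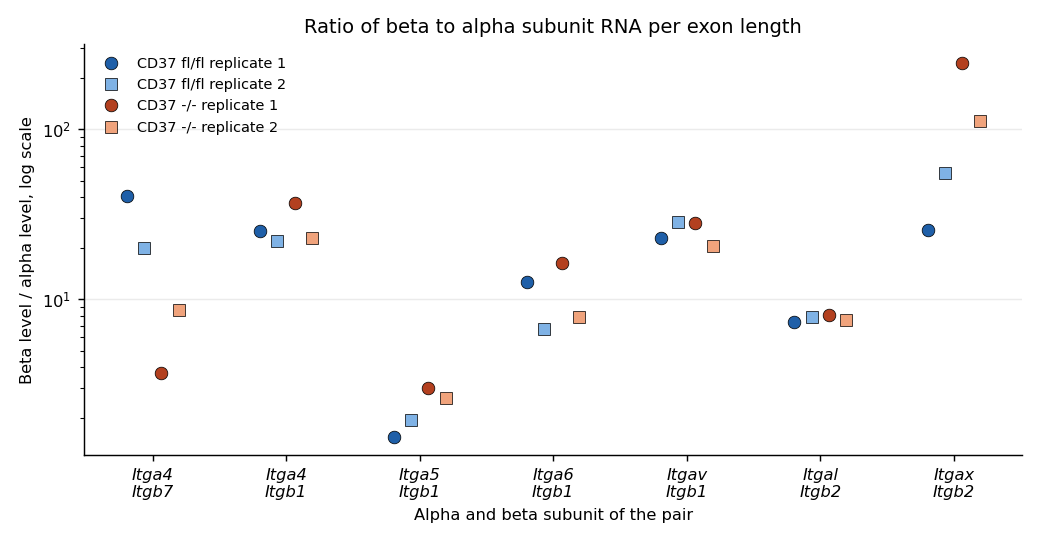
Ratio of β to α chain level per exon length (log axis) for 7 pairs in each library, with symbols as in the plot of FPKM by member. The *Itgal* and *Itgb2* ratios lie between 7.33 and 8.14 in all 4 libraries, whereas the *Itga4* and *Itgb7* ratios run from 40.5 down to 3.69.

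The rest of the integrin family was mostly at low levels. Of 16 other subunit genes listed, 13 were in the table and 4 passed the filter on low values, *Itgb5*, *Itgb3*, *Itga2b* and *Itga10*. At an unadjusted p under 0.05, 0 of these 4 passed in limma (22.1% of all genes), 0 had an adjusted p under 0.05, and limma-voom on recovered reads had 0 of 8 at an unadjusted p under 0.05. *Itgb5*, a partner of αv, was the highest of them on the exon scale with a mean of 9.35, and had 0.352 and 0.207 against 0.226 and 0.326 FPKM (log2 fold change 0.00, adjusted p = 1.0, limma). *Itgb3*, the β chain of the platelet fibrinogen receptor and of αvβ3, had 0.095 and 0.0841 against 0.122 and 0.12 FPKM (0.22, adjusted p = 0.66, limma). *Itga2b*, its platelet partner, had 0.283 and 0.134 against 0.261 and 0.362 FPKM (0.45, adjusted p = 0.476, limma). The median log2 fold change of the 4 was 0.11, and -0.23 after quantile normalization. *Itgae*, the other α partner of β7, was at 0.0101 to 0.0218 FPKM and was not tested.

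The cytoplasmic side of integrin signaling was covered by 3 lists, chosen with earlier results of these data known. Activators, the talins, kindlins and Rap1 factors that open integrins from inside the cell, had 10 genes tested of 14 measured, of which 2 were higher and 0 lower at an unadjusted p under 0.05 (22.1% of all genes in either direction). The log2 fold change was above 0 for 10 of 10, with 64.5% of all genes above 0, and for 7 of 10 after division by the upper quartile. The 2 calls were lost after quantile normalization, after division by the upper quartile, without CD37 fl/fl replicate 1, without CD37 fl/fl replicate 2 and without CD37 -/- replicate 2, where 0 genes of the list passed, and 6 passed after TPM rescaling. *Apbb1ip*, which codes for RIAM, the link from Rap1 to talin, had 1.12 and 1.09 FPKM in CD37 fl/fl, against 1.70 and 1.95 in CD37 -/- LSCs (0.67, standard error 0.23, unadjusted p = 0.0336, adjusted p = 0.197, limma). *Rap1a* had 0.496 and 0.487 against 0.79 and 0.893 FPKM (0.67, standard error 0.25, unadjusted p = 0.0413, adjusted p = 0.212, limma). *Tln1*, the talin of blood cells, had 16.4 and 15.5 against 21.1 and 34.9 FPKM, and *Cyth1*, a regulator of β2 adhesion, 0.194 and 0.12 against 0.263 and 0.418 FPKM, both with an unadjusted p above 0.05 (0.0527 and 0.0703, limma).

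Inhibitors of integrin activation had 9 of 9 genes tested, with 2 higher and 0 lower (22.2%) at an unadjusted p under 0.05, the share of all genes being 22.1%. The number higher was 0 after division by the upper quartile (1 lower), without CD37 fl/fl replicate 2, without CD37 -/- replicate 1 and without CD37 -/- replicate 2, 1 after quantile normalization (1 lower) and without CD37 fl/fl replicate 1 (1 lower), and 4 after TPM rescaling. Both switch off Rap1 or Ras proteins. *Sipa1* had 13.9 and 10 FPKM in CD37 fl/fl, against 18.8 and 23.1 in CD37 -/- LSCs (0.81, unadjusted p = 0.0268, adjusted p = 0.187, limma), and *Rasa3* had 0.705 and 0.611 against 1.08 and 1.33 FPKM (0.78, unadjusted p = 0.0277, adjusted p = 0.188, limma). Activators and inhibitors thus both held genes with higher values. *Rap1gap2*, another GTPase-activating protein of Rap1, had 0.0869 and 0.053 against 0.124 and 0.189 FPKM. *Itgb1bp1*, which codes for the β1 tail binding protein ICAP-1, had 2.20 and 1.84 against 1.59 and 1.31 FPKM, and neither passed (unadjusted p = 0.123 and 0.126, limma).

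The adhesion complex that forms on integrin tails, with its kinases and adaptors, had 19 genes tested of 22 measured, and 6 of these (31.6%) were higher and 0 lower at an unadjusted p under 0.05, beside 16.5% of all genes higher. The count was 2 after quantile normalization, 2 after division by the upper quartile, 1 without CD37 fl/fl replicate 2 and 0 without CD37 -/- replicate 2, but 13 after TPM rescaling and 12 of 22 in limma-voom. The number of all genes higher moved as well, from 1946 of 11774 to 1075, 1122, 1726, 829 and 3395 of 11774 and to 2498 of 13056 in the same order. The adjusted p within the list was at least 0.176 (limma). *Crkl*, an adaptor downstream of β1 integrins, had 0.615 and 0.879 FPKM in CD37 fl/fl, against 1.39 and 1.58 in CD37 -/- LSCs (0.92, standard error 0.28, adjusted p = 0.176, limma). *Parvg*, the parvin of blood cells, had 13 and 14.3 against 20.5 and 25.5 FPKM (0.74, standard error 0.23, adjusted p = 0.178, limma). *Vasp*, an actin polymerase, had 23.2 and 16.9 against 30.4 and 36.6 FPKM, and *Actn1*, an actin crosslinker, 0.578 and 0.287 against 0.805 and 1.11 FPKM. For each of these 4 genes the lowest CD37 -/- value was above the highest CD37 fl/fl value, as for 42.2% of all genes tested. They were named for the smallest p, which favors such a separation. The median log2 fold change of the list was 0.74, beside 0.23 for all genes tested.

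**Figure D5:**
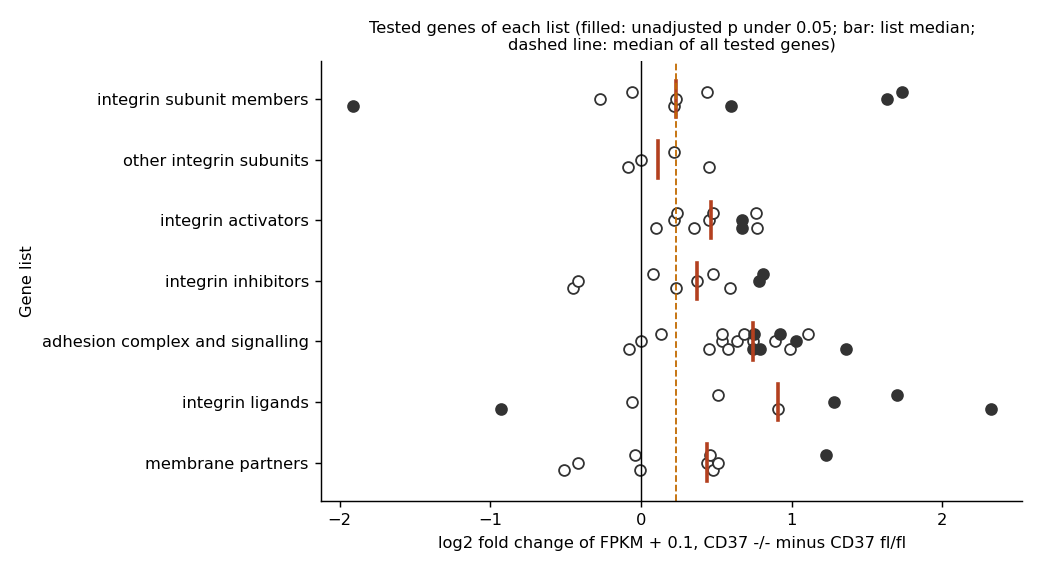
log2 fold change of FPKM + 0.1 (x axis) of each tested gene, by list, with filled points at an unadjusted p under 0.05, the list median as a bar and the median of all genes as a dashed line. The adhesion complex list has its median at 0.74 and 6 filled points, and the integrin subunit members spread from -1.91 to 1.73 around a median of 0.23.

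Genes of the ligands were read in the same cells, where they measure RNA of the sorted cells and not of the stroma. Of 7 tested, 3 were higher and 1 lower at an unadjusted p under 0.05 in limma, beside 16.5% and 5.61% of all genes, and 0 had an adjusted p under 0.05. *Icam1*, a ligand of LFA-1 and Mac-1, had 0.463 and 0.652 FPKM in CD37 fl/fl, against 1.73 and 2.35 in CD37 -/- LSCs (1.70, standard error 0.30, unadjusted p = 0.00195, adjusted p = 0.12, limma). *Icam2*, another ligand of LFA-1, went the other way, with 7.95 and 14.3 against 5.93 and 5.17 FPKM (-0.93, standard error 0.34, unadjusted p = 0.0378, adjusted p = 0.205, limma). *Vcam1*, the ligand of VLA-4, had 0.575 and 0.146 against 2.88 and 1.30 FPKM (2.32, standard error 0.61, unadjusted p = 0.0119, adjusted p = 0.161, limma). *Vcam1* is also a marker of marrow macrophages. In the monocyte and macrophage list it was the one gene of 9 tested that passed at an unadjusted p under 0.05 (limma), beside 22.1% of all genes. The log2 fold change was above 0 for 4 of the 9, *Vcam1* included, and below 0 for 5, beside 64.5% of all genes above 0. The part of macrophage RNA in the *Vcam1* values was not tested. *Fn1*, fibronectin, had 1.12 and 0.73 against 0.995 and 3.18 FPKM, with overlap between the groups.

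Membrane proteins that sit beside integrins had 9 genes tested of 10, with 1 higher and 0 lower (11.1%) at an unadjusted p under 0.05, beside 22.1% of all genes. That gene was *Cd9*, a tetraspanin like CD37, with 0.677 and 0.627 FPKM in CD37 fl/fl, against 1.64 and 1.69 in CD37 -/- LSCs (log2 fold change 1.23, standard error 0.23, unadjusted p = 0.00292, adjusted p = 0.127, limma). Its replicates lay close in both groups. *Cd47*, the integrin-associated protein, had 4.98 and 6.33 against 8.35 and 7.77 FPKM, *Slc3a2*, the CD98 heavy chain that binds β1 tails, 18.5 and 20.8 against 25.9 and 27.4 FPKM, and *Plaur*, the urokinase receptor, 7.50 and 6.56 against 8.72 and 11.1 FPKM. For these 3 the groups did not overlap, as for 60.8% of all genes, and the unadjusted p was 0.077, 0.0947 and 0.097 (limma).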

How the data were processed

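LSCs of both genotypes, 2 samples each, were sequenced as poly(A) libraries with strand marking (dUTP). The values were deposited by the authors as FPKM, per library and not pooled. Their processing notes name fastp 0.20.1, STAR 2.7.7a, featureCounts 2.0.0, edgeR and mm39, and the annotation was not given in the sources used here. Gene spans of GENCODE M21 (GRCm38), matched by 17045 of 17104 identifiers (99.7%), turned 98.9% of values into whole reads within 0.05 reads, which chance meets for 10.0%. Positions are those of GRCm38. Implied depths were 15327442 to 22627472 reads, and intervals cover counting error only.

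Values were transformed as log2(FPKM + 0.1), a scale that understates changes of low genes, filtered at a mean FPKM of 0.1 and tested with limma 3.58.1 (R 4.3.3, lmFit, eBayes with a trend, Benjamini-Hochberg adjustment, two-sided). Ratios and shares were tested with the exact permutation test in scipy 1.17.1 (Python 3.11.15). The code was tested on simulated data. Members, lists and tests were chosen with earlier results of these data known. Named were all members, up to 4 genes per list with the smallest p among those averaging 100 reads or more, the 3 highest other subunits, *Cd37*, *Kit*, and of marker lists genes at 0 and the 2 highest, and further names are marked as chosen later. Alternatives were 2 pseudocounts, 3 filters, 3 scalings, 2 forms of eBayes, a replicate block, limma-voom on reads (mean of 10 or more), each library left out, and other gene lengths.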

Additional observations from a re-analysis of the deposited data

How the results depend on the processing

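The directions of *Itgb7*, *Itgb1*, *Itgb2*, *Itgal* and *Itgav* were kept under the 16 alternatives where each was tested, and 0 members had an adjusted p under 0.05 in any of them. Directions turned for *Itga4* (quantile normalization -0.12, without CD37 -/- replicate 2 -0.04), *Itga5* (TPM rescaling 0.31, without CD37 -/- replicate 1 0.07), *Itga6* (quantile normalization -0.14, without CD37 fl/fl replicate 1 -0.19, without CD37 -/- replicate 2 -0.18) and *Itgax* (TPM rescaling 0.02, without CD37 fl/fl replicate 1 0.33, without CD37 -/- replicate 1 0.31), and the cause was not tested. With each library left out in turn these 4 ranged from -0.04 to 0.49, -0.19 to 0.07, -0.19 to 0.64 and -0.87 to 0.33. The genes at an unadjusted p under 0.05 numbered 1626 with a pseudocount of 1 and a mean FPKM of at least 1, and 1621 with that filter alone, where 6761 genes were tested. With each library left out there were 1167 to 2154 genes and 2 to 3 members, 2 without CD37 fl/fl replicate 1 or CD37 -/- replicate 1 and fewest genes without CD37 -/- replicate 2.

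The median log2 fold change of the members was 0.60 with a mean FPKM of at least 1, which leaves out 4 of them, -0.12 after quantile normalization and from -0.04 to 0.62 with each library left out. After quantile normalization and TPM rescaling the medians were -0.23 and 0.35 for other integrin subunits, 0.29 and 0.83 for activators, 0.25 and 0.75 for inhibitors, 0.42 and 1.09 for the adhesion complex and 0.28 and 0.82 for membrane partners. With each library left out they ranged from 0.02 to 0.27 (other subunits), 0.37 to 0.60 (activators), 0.21 to 0.47 (inhibitors), 0.50 to 0.90 (adhesion complex), 0.12 to 1.70 (ligands) and 0.31 to 0.39 (membrane partners). On deposited FPKM the difference in β share was 38.7 percentage points for *Itgb2* and -37.5 for *Itgb7*, since gene spans weigh the chains differently. Transcript length in place of exon length, chosen after seeing the data, moved no ratio or β share by more than its replicate SD.

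Replicate numbers did not pair the samples (Pearson's r of the replicate differences -0.059 across 11774 genes, which are not independent). With the replicate block 2475 genes had an unadjusted p under 0.05, that of *Itgb1* became 0.0644 (limma), and no other member's call changed. The block left 0 activators, 1 inhibitor and 4 adhesion complex genes higher at an unadjusted p under 0.05.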
